A study of Drosophila melanogaster with 2 samples.

Results

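The regions described here are those that a ChIP-seq experiment placed on the heterochromatin and unplaced scaffolds of the older Drosophila melanogaster assembly, dm3. They were taken as every region of the pooled dm3 list whose scaffold name ends in Het or begins with U, a rule that uses position and no measured value. There were 1199 such regions among 30000 (4.0% of the list). They lay on 7 scaffolds: 464 on 3LHet, 448 on 2RHet, 197 on 3RHet, 37 on U, 32 on 2LHet, 11 on Uextra and 10 on XHet. None of the 4 dm3 lists analysed here held a region on YHet. The chromatin came from whole embryos of both sexes, aged 0 to 16 h, of a transgenic fly line that stably carries CG11723 with GFP fused to its C-terminus. Anti-GFP antibody was used for the precipitation, and the DNA was fragmented by sonication to 200 to 800 bp. The study has 1 group of 2 samples, biological replicates 1 and 3, so no treatment or genotype was compared and no test between conditions exists. Both samples carry the tagged transgene, the embryos pool many tissues and stages, and no untagged sample was analysed here.

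Heterochromatin is the part of the genome that stays compact through the cell cycle; in flies it surrounds the centromeres, makes up most of the Y and runs through much of chromosome 4. It is built from satellite arrays and transposable elements, carries histone H3 methylated at lysine 9, and binds HP1, yet it also holds essential genes that are transcribed in that setting. In dm3, pericentromeric sequence that could be tied to an arm was kept in separate Het scaffolds, while U and Uextra collected sequence of unknown place, and part of this sequence was later joined to the arms in the newer dm6 assembly. In repeated sequence a short read can match many places, and the sources used here do not say how such reads were treated.

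No dm3 genome was used, so the sequences shown here come from dm6, where regions can be read base by base. They reach 50 bp to each side of the summits of the 5 strongest regions in the last part of arm 3L, beyond the number of the highest dm3 region end on that arm, followed by the summit of the only dm6 region outside the major arms and chromosome 4, which lies on the Y. The 5 from 3L show the DNA under the strongest regions there, and the one on the Y lies under a weak region; no dm6 region was matched to a dm3 one. Each is read 5′ to 3′ on the plus strand of the RefSeq dm6 genome, and capitals mark unbroken runs of A and T of at least 6 bp and any match to the motifs named further on.
MED21, 3L:25115946-25116046: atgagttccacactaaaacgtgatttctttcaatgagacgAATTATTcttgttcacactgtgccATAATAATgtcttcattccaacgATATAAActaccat
CG40228, 3L:27083973-27084073: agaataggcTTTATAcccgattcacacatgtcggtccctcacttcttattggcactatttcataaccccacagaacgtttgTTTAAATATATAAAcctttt
Dbp80, 3L:27279178-27279278: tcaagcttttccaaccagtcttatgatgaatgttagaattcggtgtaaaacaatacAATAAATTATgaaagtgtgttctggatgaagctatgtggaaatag
RpL15, 3L:27267124-27267224: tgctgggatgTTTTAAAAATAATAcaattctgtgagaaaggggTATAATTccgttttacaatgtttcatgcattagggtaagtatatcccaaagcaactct
UQCR-11, 3L:25120619-25120719: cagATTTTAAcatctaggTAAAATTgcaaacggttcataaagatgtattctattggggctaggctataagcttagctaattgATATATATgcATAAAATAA
Y, Y:380402-380502: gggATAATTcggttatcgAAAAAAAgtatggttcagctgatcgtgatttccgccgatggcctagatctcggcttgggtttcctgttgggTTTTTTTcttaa
The first, at MED21, has 33.7% G and C and the last, on the Y, has 43.6%. Every one of the 6 holds at least 1 run of A and T of 6 bp or more, as did 82.4% of the windows around all regions in the rest of 3L, so the runs do not set these windows apart. In the Y window, 83.2% of the bases are marked as repeats in the reference, against none at MED21 and UQCR-11 and between 17.8% and 24.8% in the other three.

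Few of the scaffold regions were strong. The authors' final list, which passed an irreproducible discovery rate (IDR) analysis of the replicates, holds exactly the 3547 regions of highest signal in the pooled list, and 42 of the 1199 scaffold regions were in it, or 3.50% (exact Clopper-Pearson 95% interval 2.54 to 4.71). Over all pooled regions the share was 11.8%. On arms 2L, 2R, 3L, 3R and X together it was 12.1% (11.8 to 12.5, 3394 of 27954), and on chromosome 4, which is itself largely heterochromatic, it was 13.1% (10.9 to 15.6, 111 of 847). The interval of the scaffolds did not reach that of any single arm. These intervals cover counting error only: they treat regions as separate, although neighbouring regions overlap, and they say nothing about the spread between embryos.

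Among the scaffolds the share ranged from none to 9.38%, within wide intervals. On 2LHet 3 of 32 regions were in the IDR list (9.38%, 1.98 to 25.02), on 3RHet 11 of 197 (5.58%, 2.82 to 9.77), on 3LHet 16 of 464 (3.45%, 1.98 to 5.54) and on 2RHet 12 of 448 (2.68%, 1.39 to 4.63). These 4 intervals overlap one another. XHet, U and Uextra had none, which at 10, 37 and 11 regions allows shares of up to 30%, 8.11% and 27.3% by the limit of 3 counts over the total. Their exact upper bounds, which the plot of shares shows, were 30.8%, 9.49% and 28.5%. The exact upper bounds of 2RHet, 3LHet, 3RHet and U lay below the 11.8% of the whole list, and those of 2LHet, XHet and Uextra did not.

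**Figure D1:**
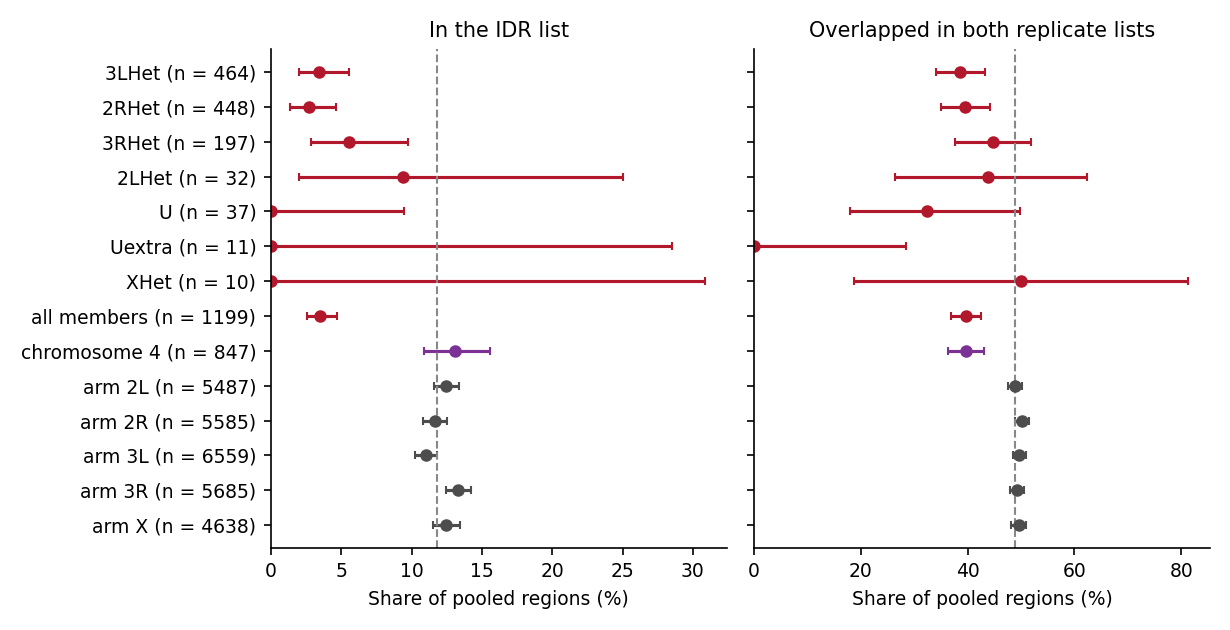
Share of pooled dm3 regions in the IDR list (left) and overlapped by a region in both replicate lists (right), in percent, for each scaffold, all scaffold regions together, chromosome 4 and each arm. Points are shares, bars are exact 95% binomial intervals and the dashed line is the share over all 30000 regions; the scaffold regions together lie left of the dashed line in both panels, at 3.50% and 39.6%.

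The same low standing appeared across the whole range of signal, the authors' enrichment score for each region, whose scale is not given and which is compared here only within a list. The median signal was 22.6 for the scaffold regions (quartiles 18.4 and 31.2), 29.9 for the 5 arms and 30.4 for chromosome 4. By rank, where 1 is the strongest, the median scaffold region stood at 20512 of 30000 and the median arm region at 14736.5. Among the weakest regions of the list, ranks 20001 to 30000, were 52.1% of the scaffold regions but 32.7% of arm regions and 28.2% of those on chromosome 4. At the other extreme, 10 scaffold regions (0.834%) ranked in the first 500, against 1.66% of arm regions and 2.95% of those on chromosome 4. The medians of the scaffolds themselves were close: 22.1 on 3LHet, 22.8 on 2RHet, 23.4 on 3RHet, 24.96 on 2LHet, 22.3 on U, 22.6 on Uextra and 20.7 on XHet.

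**Figure D2:**
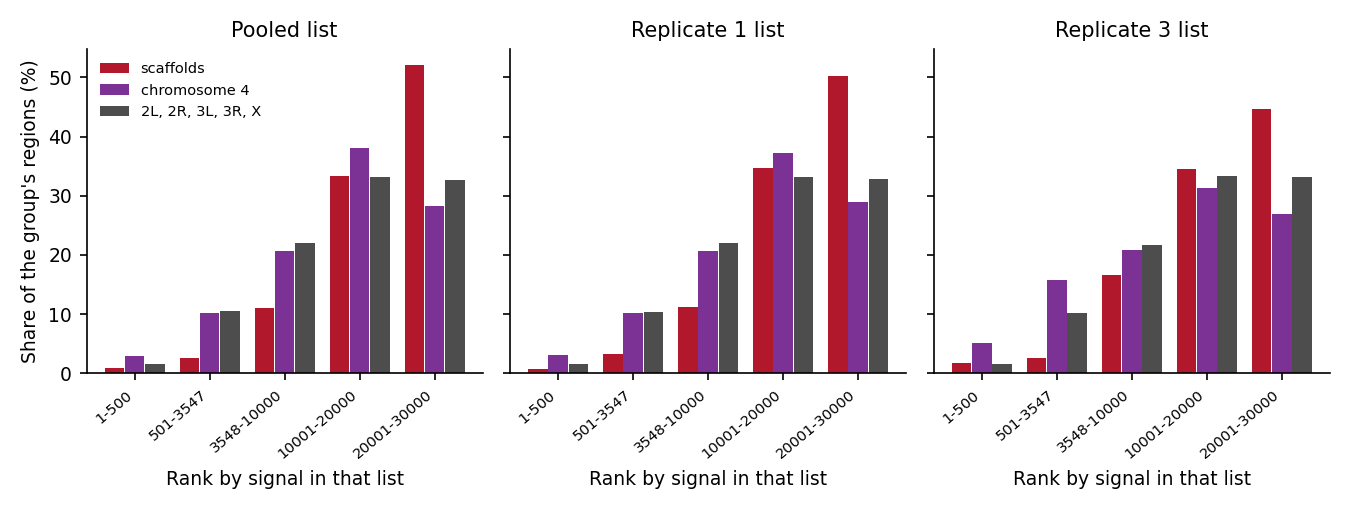
Distribution of regions over 5 classes of signal rank in the pooled, replicate 1 and replicate 3 lists, as the percent of each group's regions in that list; bars show the scaffolds, chromosome 4 and the other arms. In each list the scaffolds have the tallest bar in ranks 20001 to 30000, at 52.1%, 50.1% and 44.6%.

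Regions were also sparser than on the arms on every scaffold but XHet. Over the stretch from the first to the last region, 3LHet held 183 regions per Mb, 2LHet 171, 2RHet 138 and 3RHet 78.6, against 235 on the arms and 697 on chromosome 4. U held 3.98 per Mb and Uextra 0.431; no 2 of the 11 Uextra regions fell in the same 100 kb. XHet had 376 per Mb, but all 10 of its regions lay within 0.0266 Mb. IDR regions numbered 16.0 per Mb on 2LHet, where 3 lay within 0.187 Mb, 6.32 on 3LHet, 4.39 on 3RHet and 3.69 on 2RHet, against 28.6 on the arms and 91.3 on chromosome 4. The scaffold regions covered 487 kb in all, of which the IDR regions covered 17.5 kb. Repeat content and uncallable sequence, which lower the length in which a region can be found, were not measured on dm3.

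Regions were spread widely along the large scaffolds, and the IDR regions lay partly alone and partly in short runs. On 3LHet all 26 windows of 100 kb up to the last region held at least 1 region, on 2RHet 31 of 33 did, and on 3RHet 20 of 26. The fullest windows were 3100001 to 3200000 on 2RHet with 63 regions, of which 1 was in the IDR list, 2400001 to 2500000 on 3LHet with 56, also with 1, and 1800001 to 1900000 on 3RHet with 43, of which 6 were. Joined across gaps of up to 20 kb, the 42 IDR regions formed 24 runs: 13 single regions and 11 runs that held the other 29. The largest runs had 4 regions each, at 3LHet:2392759-2410036 and 3RHet:1808405-1824945. The 3 IDR regions of 2LHet lay together at 2LHet:168946-170876. Of the 42, 28 (66.7%) had another IDR region within 5 kb, against 54.3% on the arms and 77.5% on chromosome 4.

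The strongest scaffold regions reached levels well inside the range of the best arm regions. Signal in the 42 ran from 94.0 to 548 with a median of 145, while IDR regions of the arms had a median of 149 and a maximum of 1645. The strongest, 2RHet:390424-391252, had a signal of 548 in the pooled list and rank 139. Its replicate regions had signals of 276 in replicate 1 (rank 182) and 278 in replicate 3 (rank 97). It was the strongest scaffold region in each replicate.

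The strongest on 3LHet was 3LHet:2190558-2191393, with a pooled signal of 520 and rank 161. In replicate 1 its signal was 269.5 (rank 193), and in replicate 3 it was 245 (rank 156). The same interval is listed again in the pooled list with a second summit, signal 252 and rank 724, so it accounts for 2 of the 42. Next came 3LHet:2409555-2410036 with a pooled signal of 472, which ranked 249 in replicate 1 and 173 in replicate 3. In the same run, 3LHet:2397080-2398018 had 456 and ranked 242 and 188. At 939 bp it was the widest scaffold region.

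On 3RHet the strongest was 3RHet:1823697-1824356, with a pooled signal of 453 and rank 219; its replicate signals were 214 (rank 330 in replicate 1) and 247.5 (rank 148 in replicate 3). The region 2RHet:1335910-1336441 had a pooled signal of 450.5 and ranked 224 and 281 in replicates 1 and 3. The region 2RHet:2775480-2776033 had 411 and ranked 355 and 227. Of these strong regions all but 2RHet:1335910-1336441 ranked better in replicate 3 than in replicate 1.

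The remaining regions of the first 10 were 3LHet:1396614-1397155 with a pooled signal of 396 (ranks 375 and 336 in replicates 1 and 3), 3LHet:2243269-2243750 with 380 (ranks 510 and 265) and 3RHet:1808405-1808774 with 319 (ranks 555 and 474). All 3 again stood higher in replicate 3. The strongest on 2LHet was 2LHet:169949-170310, with a pooled signal of 163 and ranks of 1271 and 2479; here replicate 1 gave the better rank.

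At the limit of the IDR list, the weakest region inside was 2RHet:337794-337977 with a signal of 94.0 and rank 3413, and the strongest outside was its neighbour 2RHet:337979-338422 with 85.5 and rank 3862. Next outside were 3LHet:2193654-2193870 with 83.3 and 3RHet:1900208-1900651 with 79.3. The first pair is adjacent and overlaps the same replicate regions, ranked 5014 in replicate 1 and 3291 in replicate 3. The values of these regions form no step at the limit beyond the gap of 94.0 to 85.5.

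On the 3 scaffolds with no region in the IDR list, the strongest regions stood above the median signal of the whole list, 29.5. On U it was U:912396-912552, with a pooled signal of 75.6 (rank 4523) and replicate ranks of 12051 in replicate 1 and 3019 in replicate 3. On XHet it was XHet:75470-75913, with 45.0 (rank 8834) and ranks of 9525 and 5732. On Uextra it was Uextra:19603837-19604014, with 47.6 (rank 8223), rank 8442 in replicate 1 and no region in replicate 3. None of the 11 Uextra regions was overlapped in the replicate 3 list, which held no region on that scaffold, while 9 of them were overlapped in replicate 1.

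The replicate lists, each again of 30000 regions, were called on the reads of 1 replicate. Overlap by at least 1 bp shows which pooled regions meet a region of each list. Lack of overlap does not show that a sample gave no reads there, since each list holds only its 30000 regions. Of the 1199 scaffold regions, 475 were overlapped in both lists (39.6%, 36.8 to 42.4), against 48.9% of all pooled regions and 49.5% of those on the arms (48.9 to 50.1). Chromosome 4 had 39.7% (36.4 to 43.0). Of the rest, 438 (36.5%) were met only in replicate 1, 148 (12.3%) only in replicate 3 and 138 (11.5%) in neither. On chromosome 4 the part met only in replicate 1 was 52.2% and that met only in replicate 3 was 3.78%, and on the arms they were 28.8% and 15.1%. The scaffolds had the highest part met in neither list, with 6.52% on the arms and 4.37% on chromosome 4.

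**Figure D3:**
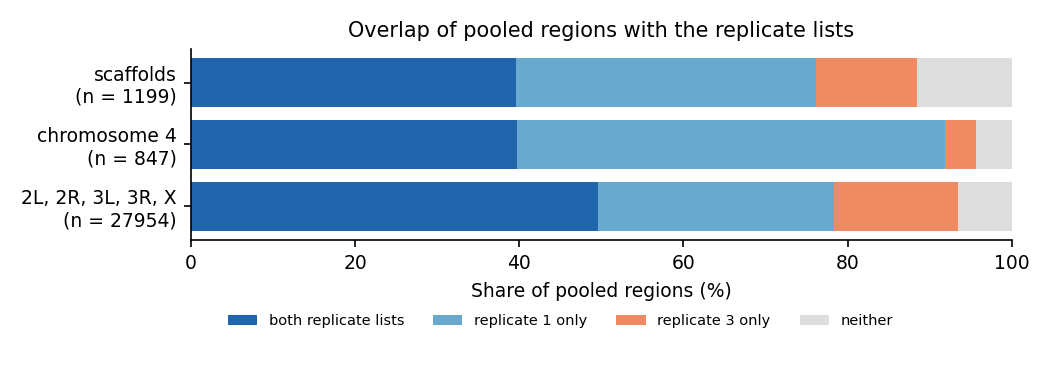
Share of pooled dm3 regions (percent) overlapped by at least 1 bp by a region in both replicate lists, in replicate 1 only, in replicate 3 only or in neither, for the scaffolds, chromosome 4 and the other arms. Regions met only in replicate 1 make up 36.5% of the scaffold bar, 52.2% of the chromosome 4 bar and 28.8% of the arm bar.

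The replicates differed in how much of their lists lay on the scaffolds. Replicate 1 had 1083 regions there (3.61% of its list) and replicate 3 had 711 (2.37%). Each large scaffold followed this: 3LHet had 415 and 267, 2RHet 415 and 262, and 3RHet 173 and 130. Chromosome 4 moved in the same direction, from 1014 regions in replicate 1 to 349 in replicate 3, while the arms had 27903 and 28940. With 1 list a replicate this is a difference between 2 samples, and its source was not tested. In the share of strong regions the replicates were alike: 43 of 1083 (3.97%, 2.89 to 5.31) in replicate 1 and 31 of 711 (4.36%, 2.98 to 6.13) in replicate 3 were among the first 3547 of their own list, where the arms had 12.1% and 11.9%. Of 23 regions on U in replicate 3, 1 was among those first 3547, and of 35 in replicate 1 none was.

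Counted by rank in both samples at once, 39 of the 1199 pooled scaffold regions (3.25%, 2.32 to 4.42) overlapped a region among the first 3547 of replicate 1 and of replicate 3, against 8.65% of all pooled regions, 8.83% on the arms and 10.2% on chromosome 4. Of these 39, 26 were in the IDR list and 13 were not. On the arms 2004 of 2469 were in it and 465 were not. On chromosome 4, 72 of 86 were and 14 were not. A region takes the best rank among the replicate regions that it overlaps, so a weak region beside a strong one can be counted.

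All 42 scaffold regions of the IDR list were overlapped in both replicate lists, as were 92.8% of the 3394 on the arms and 92.8% of the 111 on chromosome 4. Since the IDR list was made from these replicates, this is a description and no independent check. In replicate 1, 40 of the 42 (95.2%) were among the first 3547, and in replicate 3, 28 (66.7%). On the arms the 2 shares were nearly equal, at 79.4% and 76.9%, and on chromosome 4 they were 98.2% and 66.7%, close to the scaffolds. Over all 42, 24 ranked better in replicate 1 and 18 in replicate 3, with a median ratio of the rank in replicate 3 to that in replicate 1 of 1.24, against 0.994 on the arms and 3.10 on chromosome 4. Split at rank 1000 of the pooled list, a value chosen after the data were seen, the scaffold regions fell into unlike sets. Of the 16 scaffold regions within the first 1000 of the pooled list, 13 ranked better in replicate 3 and 3 in replicate 1; of the 26 weaker ones, 21 ranked better in replicate 1 and 5 in replicate 3. The median ratio was 0.793 in the first set and 1.88 in the second. With the same split it was 1.0 and 0.993 on the arms, and 3.35 and 2.93 on chromosome 4. Whether the change with strength differs from theirs was not tested. Regions of the same run are not independent, so these counts describe the list. The most uneven was 3LHet:458003-458537, chosen after its values were seen, with rank 1788 in replicate 1 and 15187 in replicate 3. Over the 42, Spearman's rho between the 2 ranks was 0.724. Over IDR regions met in both lists it was 0.493 on the arms (3148 regions) and 0.732 on chromosome 4 (103 regions). Over the 475 scaffold regions met in both lists it was 0.570, with 0.611 over 13845 arm regions and 0.705 over 336 on chromosome 4. A region's overlapping neighbours share reads in each of these sets.

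**Figure D4:**
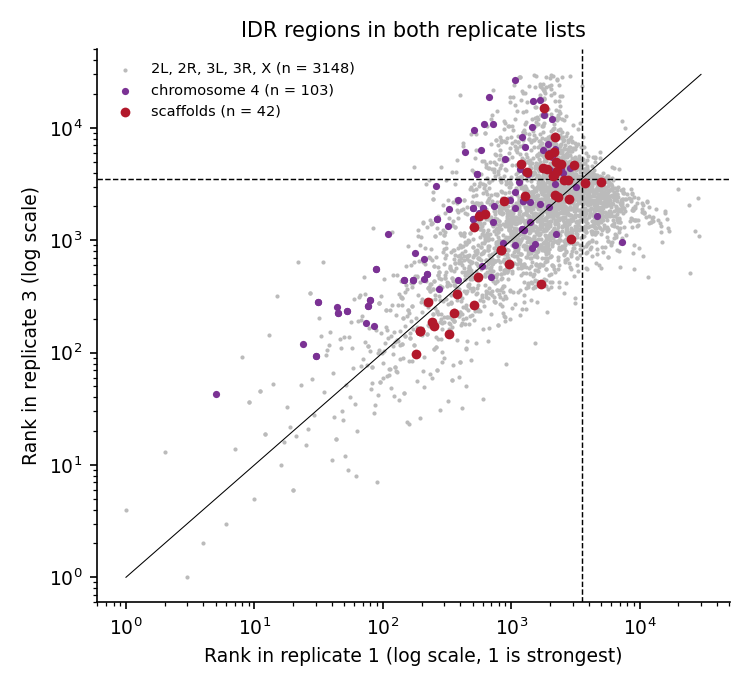
Rank in replicate 1 (x) and in replicate 3 (y), both on log scales with 1 as the strongest, of IDR regions overlapped in both lists; the diagonal marks equal ranks and dashed lines mark rank 3547. The strongest scaffold regions lie just below the diagonal (13 of 16 ranked better in replicate 3), and the weaker ones mostly above it (21 of 26).

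In shape the scaffold regions were mostly uniform. A width of 444 bp was held by 95.6% of them, as by 92.6% of all pooled regions. Among the 42 in the IDR list 11 (26.2%) had that width, against 43.5% of IDR regions on the arms and 21.6% on chromosome 4, and the others ran from 155 to 939 bp. Overlap within the list was common: 399 of the 1199 (33.3%) overlapped another scaffold region, and all of them merged into 992 blocks, while on the arms 37.3% overlapped another.

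The pooled dm6 list held 1 region outside the major arms and chromosome 4. It lay at Y:380232-380671, with a signal of 24.1 and rank 20454, was not in the IDR list, and had a region in replicate 1 (rank 26925) and none in replicate 3. It is the Y region whose sequence was printed above; its summit falls in an intron of an annotated gene and the nearest start site, 33307 bp away, belongs to the pseudogene CR45947. Over the whole dm6 list 12.9% of 30000 regions were in the IDR list.

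The last part of arm 3L in dm6 gives the nearest annotated view of pericentromeric sequence, and was chosen after the data had been seen. It was taken as the positions beyond 24537278, the end of the last dm3 region of 3L, up to the arm's end at 28110227, a stretch of 3.57 Mb. Position numbers are not interchangeable between builds: of 8 dm3 IDR summits in the last 1 Mb of the dm3 arm, none had a dm6 IDR summit within 50 bp of the same number, so this limit is approximate. Of its bases 39.5% are marked as repeats in the reference, against 18.6% in the rest of the arm. It held 505 regions, of which 27 were in the IDR list (5.35%, 3.55 to 7.68), against 793 of 6508 (12.2%, 11.4 to 13.0) on the rest of 3L. The direction was that of the dm3 scaffolds, but the lists of both builds come from the same samples, so this is no independent observation. In annotated transposable elements lay 9 of the 505 summits (1.78%) and none of the 27, against 195 of 6508 (3.00%) and 9 of 793 (1.13%) in the rest of the arm. Such elements make up 8.0% of the bases of the 3L end and 6.14% of the rest. With 27 summits, none is not distinguishable from 1.13%.

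Around start sites the 3L end looked different. Of its 27 IDR summits 14 (51.9%, 31.9 to 71.3) were no more than 500 bp from an annotated start of transcription, a share near the 45.9% of the 793 on the rest of the arm. Of the 478 weaker regions 16 did (3.35%, 1.93 to 5.38), against 19.4% of 5715 on the rest of the arm. Of the 14, 13 were upstream of the start, and the median position of the 14 was -82.5 bp. On the rest of the arm 301 of 364 such summits were upstream, and the median of the 364 was -97.5 bp. Genes are few in the 3L end, where 19 coding genes had a start site. Of these, 13 (68.4%, 43.5 to 87.4) had an IDR summit within 500 bp, against 422 of 2721 (15.5%, 14.2 to 16.9) in the rest of 3L. With the limit set 100 kb further along the arm, 12 of 18 did. Several start sites can share 1 summit, so genes are not independent. The intervals at MED21 and CG40228 each entered the 14 with more than 1 summit, so summits are not independent either.

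The 5 strongest regions of the 3L end lay at MED21, CG40228, Dbp80, RpL15 and UQCR-11. The region at MED21, a Mediator subunit, had a signal of 691 and ranked 97 in replicate 1 and 46 in replicate 3, with its summit 50 bp upstream of the start. That at CG40228 had 520 and a second summit in the same interval with 252. The region at Dbp80, a DEAD-box RNA helicase, had 473.5, with ranks of 251 and 174. At RpL15, a protein of the large ribosomal subunit, signal was 456 and ranks were 243 and 190. At UQCR-11, a subunit of mitochondrial complex III, signal was 439 and ranks were 360 and 160. All of these summits lay between 40 and 117 bp upstream of the start, apart from the second one at CG40228, at 325 bp. The interval at MED21 also held a second IDR summit, with a signal of 157, at 257 bp upstream.

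Further IDR summits near start sites lay at l(3)80Fj, with a signal of 413, and l(3)80Fg, with 392, both identified through lethal mutations. The cohesin subunit gene vtd had 379, ND-AGGG, a subunit of mitochondrial complex I, had 257, and the translation initiation factor gene eIF4B had 228. The weakest of these were scro, an NK-2 homeobox gene, with 125.5 and the histone H3 lysine 4 methyltransferase gene Set1 with 122. The mitochondrial ribosomal protein gene mRpS5 sits across the limit, and the IDR region at it begins before that limit, so it is not among the 27. For side by side reading, the 5 highest signals on 3LHet in dm3 were 520, 472, 456, 396 and 380. Those of the dm6 3L end were 691, 520, 473.5, 456 and 439. The lists were scored separately and the 2 stretches need not hold the same regions. The 691 at MED21 was above every scaffold region of the pooled dm3 list, where the highest signal was 548. The 520, 473.5 and 456 lay close to values on 3LHet, and whether they are the same regions was not tested.

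Relative to their flanks, IDR windows of the 3L end and IDR windows of the rest of the arm differed in base composition in opposite directions. The 27 IDR windows had a mean of 39.7% G and C, and windows 500 bp to one side had 31.3%. In the rest of 3L, IDR windows had 35.6% and their flanks 42.2%. Windows outside the IDR list did not differ in direction. The 478 of the 3L end had 42.2% against 36.8% in their flanks, and the 5715 of the rest had 41.6% against 40.7%. The windows were searched on both strands for the DNA replication-related element (DRE), TATC followed directly by GATA, found in none of the 27 and in 1.64% of the 793; for GAGAG, found in 18.5% and 11.3%; and for 2 tandem copies of the satellite units AATAT and AAGAG, found in none of the 27 and in 0.378% and none of the 793. A run of A and T of at least 6 bp was in 81.5% and 91.6%. With 27 windows, a count of 5 is all that stands behind the 18.5%, and these matches are descriptions of letters, not sites.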

How the data were processed

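Anti-GFP ChIP-seq of 2 embryo samples was analysed from the authors' region lists on dm3 and dm6: 1 list per replicate, 1 pooled list and 1 IDR list on each build. Per the labels' file notes, regions were called with a control, and the same control file served both replicates and the pooled list. The deposited signal of a region is the authors' enrichment score, and its deposited −log10 q-value is capped (at 3.746 in the pooled dm3 list). The sources used here name no aligner, caller or IDR threshold. The lists hold no read numbers, so depth is unknown. Ranks, overlaps of at least 1 bp, shares and exact 95% intervals were computed with Python 3.11.15, numpy 2.4.6, pandas 2.3.3 and scipy 1.17.1, and overlap code was tested on simulated data. Regions named were the 10 strongest and the weakest in the IDR list, the strongest on each scaffold and the 3 best in each replicate; 3 just outside the IDR list were added, and 1 chosen after its values were seen. The members and lists were chosen with earlier results of these data known. No test was made, since there is 1 group and regions are not replicates. dm6 genes came from Ensembl's annotation of BDGP6.54 and sequences from RefSeq. Coordinates count from 1, and none was converted between builds.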

Additional observations from a re-analysis of the deposited data

How the results depend on the processing

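No paired analysis was possible because there is 1 group. On dm3 the share in the IDR list moved beyond its interval with overlap of an IDR region by at least 1 bp (5.17%). It also moved with the first 1773 regions of that list (1.67%), and a shorter list lowers the share of any group. In dm6, where the regions differ, it was also beyond that interval in the 3L end (5.35%). Outside the major arms of dm6 it was 0 of 1 region, too few to show a change. For the overlap rules and list lengths tried here, shares over all pooled regions were not computed. Whether the contrast with the whole list changed was therefore not tested. A replicate alone has no IDR list, so the share of its own regions at the top of its own list was taken instead. On dm3, with a top as long as the IDR list, this was 3.97% in replicate 1 (43 of 1083) and 4.36% in replicate 3 (31 of 711). In the 3L end of dm6 it was 5.76% in replicate 1 (27 of 469) and 5.96% in replicate 3 (19 of 319). These shares have other regions as their base, so they do not show whether the share in the IDR list is stable. The share in both replicate lists fell from 39.6% to 26.5% with 50% reciprocal overlap and 18.6% with summits within 100 bp. The share among the top of both replicates was 2.17% with a list of 1773 regions and 8.84% with the first 10000. The share overlapping another member was 15.3% with 50% reciprocal overlap. The median rank as a percent of the list was 61.6% to 66.8% from single replicates. The count was 711 to 1083 from single replicates. It was 1 in dm6 outside the major arms, a build in which part of the dm3 scaffold sequence is joined to the arms. With windows of 200 and 1000 bp, 40.7% and 74.1% of 3L-end IDR summits were at a start site (51.9% with 500 bp). The cause was not tested. Unknown depth, 2 samples, overlapping regions and repeats limit what the shares show.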
